A study of Mus musculus with 8 samples.

Results

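The genes of the rod phototransduction cascade were followed in whole retina of rd10 mice and of wild-type (WT) mice. The set held 9 genes, taken as the rows of the count table whose Ensembl identifiers carry the symbols Gnat1, Gnb1, Gngt1, Pde6a, Pde6b, Pde6g, Cnga1, Cngb1 and Sag, out of 57010 gene identifiers in the table. All 9 were measured and all 9 passed the filter on low counts, with the lowest count of any of them in any library at 5837 (Cnga1). Poly(A) RNA of 1 whole retina was sequenced for each of 8 libraries, 2 each from WT mice at postnatal day 15 (P15) and from rd10 mice of 3 ages, P15, P18 and P21. The rd10 mice were homozygous for a missense allele of Pde6b, the WT mice were C57BL/6J, and the study describes its controls as wild-type littermates. There was no WT retina at P18 or P21, so that in those comparisons genotype and age change together and cannot be told apart. The labels call the replicates biological, and do not say whether the 2 retinas of a group came from different animals.

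In darkness, cyclic GMP holds open a cation channel in the rod outer segment. Light changes the visual pigment, which activates the rod G protein transducin, and transducin in turn releases the catalytic subunits of a cyclic GMP phosphodiesterase from their inhibitory subunits, so that cyclic GMP falls and the channel closes. Arrestin ends the signal by binding the activated pigment. In rd10 mice, a model of retinitis pigmentosa, the rods carry a faulty phosphodiesterase beta subunit and are lost over the weeks after eye opening, while cones are affected later.

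The mutated gene itself is shown first. The rd10 allele changes the arginine at residue 560 of the phosphodiesterase beta subunit, which Pde6b encodes. In the reference transcript that codon lies in exon 13 of 22, in the coding sequence, at chr5:108426517-108426519 (GRCm38, plus strand), and the reference protein has 856 residues. The reference codon is in capitals within 30 coding bases on either side (chr5:108426487-108426549), and this is the unmutated sequence, since the counts carry no allele.
Pde6b reference codon: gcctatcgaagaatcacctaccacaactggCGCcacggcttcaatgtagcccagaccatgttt

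The stretch before the start site is shown for 3 members, each of which held a match to a motif named below. The cascade is known to be switched on in rods by a small number of shared transcription factors. Any part of these factors in the levels below was not tested. RefSeq promoters (GRCm38.p6, 250 bases before to 50 bases after the annotated start) were matched for 6 of the 9 members, namely Sag, Gnb1, Cnga1, Pde6b, Gngt1 and Cngb1. Each was searched on both strands for TGCTGA, the core bound by Maf family factors such as the rod factor Nrl, and for GGATTA, the core bound by Crx and related homeodomain factors, which reads TAATCC on the other strand. The motifs did not overlap each other. The sequences below give the 250 bases before the start, 5′ to 3′ on the strand of the gene, with matches in capitals.
Pde6b (chr5:108388123-108388372, plus strand): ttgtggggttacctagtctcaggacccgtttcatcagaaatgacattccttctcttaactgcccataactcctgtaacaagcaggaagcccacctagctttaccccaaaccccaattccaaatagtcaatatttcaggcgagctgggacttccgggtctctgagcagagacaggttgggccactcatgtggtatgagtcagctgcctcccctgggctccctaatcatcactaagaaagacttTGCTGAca
Sag (chr1:87803430-87803679, plus strand): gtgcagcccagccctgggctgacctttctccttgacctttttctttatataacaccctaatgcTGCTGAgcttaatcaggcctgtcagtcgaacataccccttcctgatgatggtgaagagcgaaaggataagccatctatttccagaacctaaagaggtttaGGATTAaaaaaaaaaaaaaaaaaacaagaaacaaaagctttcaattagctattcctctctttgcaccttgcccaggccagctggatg
Cngb1 (chr8:95306586-95306835, minus strand): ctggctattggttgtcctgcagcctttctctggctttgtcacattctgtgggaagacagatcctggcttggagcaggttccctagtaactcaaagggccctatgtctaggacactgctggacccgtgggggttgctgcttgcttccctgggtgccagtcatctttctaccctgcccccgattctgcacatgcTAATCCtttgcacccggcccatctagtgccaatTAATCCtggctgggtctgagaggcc

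TGCTGA was present in 2 of the 6 member promoters, at 8 bases before the start in Pde6b and at 187 bases before it in Sag, and in 19.5% of all 32851 promoters. GGATTA was present in 4 of the 6, at 228 bases before the start in Cnga1, at 58 and at 25 bases in Cngb1, at 44 bases in Gngt1 and at 87 bases in Sag, and in 7.06% of all promoters. Sag was the member with both, against 1.36% of all promoters. Gnb1 held neither in this window. Starts here are those of RefSeq, and the Cnga1 and Gngt1 matches lie inside the gene spans given below from GENCODE. These matches describe the letters and were not tested for binding.

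Total counts lay between 28076947 and 33724562 per library, so that counting error was small for every member, and values are given as CPM, the usual unit of counts scaled to library size, after TMM normalization. Marker genes of photoreceptors, bipolar cells, amacrine and ganglion cells and Muller glia were present in every library. Libraries also differed in other ways. Transcripts of 4 Y-linked genes were at 4 and 12 counts in the WT libraries, at 5530 and 6054 counts in the rd10 P15 libraries, at 6011 and 19 counts at P18, and at 7193 and 3 counts at P21. Summed markers of the retinal pigment epithelium, which adheres to the retina in dissection, stood at 42.6 and 157 CPM in WT, at 222 and 260 CPM in rd10 P15 and between 23.2 and 39.5 CPM at P18 and P21. Y-linked transcripts separated the WT from the rd10 libraries at P15, so that genotype and Y-linked expression cannot be told apart within that comparison. A model with a term for Y-linked expression, which takes its estimate from the P18 and P21 libraries, is given beside the calls, and the part of pigment epithelium in the results was not tested.

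Together the 9 transcripts took a smaller share of all counts at each later rd10 age. Their share was 2.79% and 2.55% in the WT P15 libraries, 2.10% and 2.23% at rd10 P15, 1.84% and 1.69% at rd10 P18, and 1.37% and 1.57% at rd10 P21. The groups did not overlap, and each share had an exact 95% binomial interval narrower than the gap to the next group (for example 2.78% to 2.79% in WT replicate 1), which covers counting error only. In whole retina, fewer rods and less RNA of these genes per rod cannot be told apart.

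In GENCODE M21 (GRCm38) the 9 genes are protein-coding, lie apart from each other in the genome and share no exon with another gene. The transducin genes are Gnat1 (ENSMUSG00000034837) at chr9:107674474-107679712 on the minus strand, Gnb1 (ENSMUSG00000029064) at chr4:155491361-155559269 on the plus strand and Gngt1 (ENSMUSG00000029663) at chr6:3993792-3997436 on the plus strand. The phosphodiesterase genes are Pde6a (ENSMUSG00000024575) at chr18:61220315-61289924 on the plus strand, Pde6b (ENSMUSG00000029491) at chr5:108388391-108432397 on the plus strand and Pde6g (ENSMUSG00000025386) at chr11:120447605-120453500 on the minus strand. The channel genes are Cnga1 (ENSMUSG00000067220) at chr5:72603696-72644275 on the minus strand and Cngb1 (ENSMUSG00000031789) at chr8:95239045-95306585 on the minus strand. The arrestin gene is Sag (ENSMUSG00000056055) at chr1:87803680-87845158 on the plus strand.

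Compared per length of the main protein-coding transcript, the members differed widely in level. In WT P15 retina Gnat1 was the most abundant at 4743 ± 11.2 CPM per kilobase (SD, n = 2), followed by Sag at 1939 ± 242 and Pde6g at 1913 ± 147, which did not differ beyond their spread. Gnb1 came next at 1187 ± 220 CPM per kilobase, and then Pde6b at 797 ± 52.2, Pde6a at 738 ± 83.7 and Gngt1 at 730 ± 48.6, which also lay within each other's spread. The channel genes were lowest, with Cnga1 at 239 ± 141 and Cngb1 at 179 ± 26.6 CPM per kilobase. The order depends on the gene model for Sag, which would stand sixth, at 374 CPM per kilobase, if all annotated exons of the gene were counted as its length. At rd10 P21 Gnat1, Sag, Pde6g and Gnb1 still held the top 4 places in this order, at 2139, 1265, 938 and 669 CPM per kilobase.

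Each of the 3 transducin genes was lower in both rd10 P21 libraries than in both WT P15 libraries, and Gnat1 was the member of the 3 that passed the test. Gnat1, the rod transducin alpha subunit, stood at 11060 and 11023 CPM in the WT P15 libraries, at 7984 and 8362 CPM in rd10 P15, at 6635 and 6491 CPM in rd10 P18 and at 4461 and 5500 CPM in rd10 P21. No group overlapped another, and the level stepped down at each age. Against WT P15 the log2 fold change of Gnat1 was -0.43 ± 0.14 (SE) at P15, -0.75 ± 0.14 at P18 and -1.15 ± 0.14 at P21, or 54.9% lower at P21. With edgeR's quasi-likelihood test and Benjamini-Hochberg adjustment over 20457 genes, the adjusted p was 0.257, 0.0403 and 0.0332 at the 3 ages. A call needed an adjusted p under 0.05 together with a log2 fold change beyond 1 in either direction, and Gnat1 met both at P21.

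Gnb1 encodes the transducin beta subunit and is also used in many other cells. It was measured at 4219 and 3240 CPM in WT P15, 3076 and 3227 CPM in rd10 P15, 1900 and 1893 CPM in rd10 P18 and 2297 and 1908 CPM in rd10 P21. The 2 WT libraries differed from each other more than the rd10 P15 libraries differed from the lower of them, and the lowest level was reached by P18. The log2 fold change of Gnb1 against WT P15 was -0.24 ± 0.16 at P15, -0.98 ± 0.17 at P18 (adjusted p = 0.0321 by edgeR) and -0.83 ± 0.17 at P21 (adjusted p = 0.0905). Gngt1, the rod transducin gamma subunit, took another course. It was measured at 904 and 823 CPM in WT P15, 757 and 767 CPM in rd10 P15, 814 and 515 CPM in rd10 P18, and 365 and 426 CPM in rd10 P21. The 2 libraries at P18 lay far apart, on either side of rd10 P15, while the WT libraries lay above and the P21 libraries below all others. Its log2 fold change was -0.18 ± 0.21, -0.38 ± 0.21 and -1.13 ± 0.21 at the 3 ages, with an adjusted p of 0.0789 by edgeR at P21. The P18 value was -0.75 without rd10 P18 replicate 1 (adjusted p = 0.0225 by edgeR) and -0.0851 without rd10 P18 replicate 2.

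**Figure D1:**
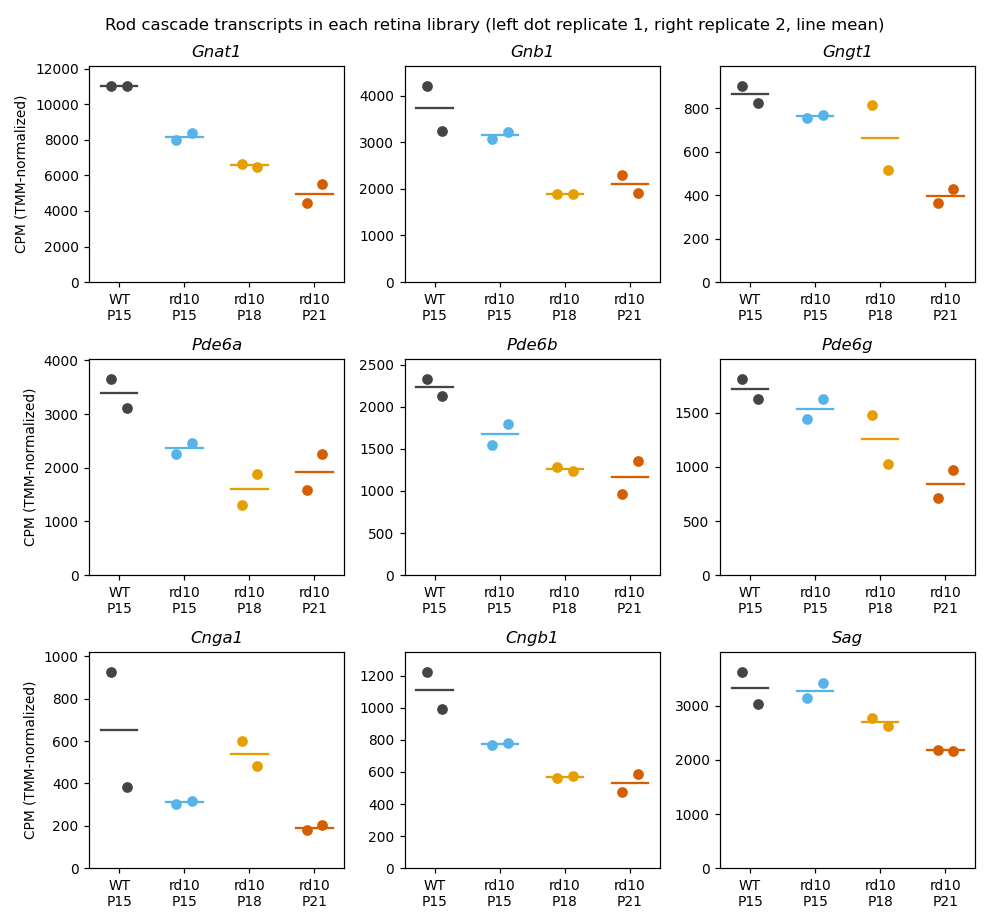
Level of each rod cascade transcript in TMM-normalized CPM (vertical axes, from 0) in WT P15, rd10 P15, rd10 P18 and rd10 P21 retina, with a dot for each library and a line at the mean of 2. Gnat1 steps down from 11042 to 4980 CPM without overlap between groups, while Cnga1 has WT libraries at 927 and 382 CPM.

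The mutated gene and its partners in the phosphodiesterase were also lower, and none of the 3 passed the test at any age. Pde6b, the beta catalytic subunit, was measured at 2335 and 2128 CPM in WT P15, 1546 and 1799 CPM in rd10 P15, 1283 and 1234 CPM in rd10 P18, and 964 and 1360 CPM in rd10 P21. The rd10 libraries of each age lay below both WT libraries, and the P18 and P21 libraries overlapped. Its log2 fold change was -0.42 ± 0.18 at P15, -0.83 ± 0.18 at P18 and -0.94 ± 0.18 at P21, which is 25.0%, 43.6% and 47.9% lower, with an adjusted p of 0.404, 0.0672 and 0.0836 by edgeR. Its mean level at P21, with the missense allele, was 1162 ± 280 CPM (SD, n = 2), against 2231 ± 146 CPM (SD, n = 2) in WT P15.

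Pde6a, the alpha catalytic subunit, stood at 3659 and 3116 CPM in WT P15, 2261 and 2461 CPM in rd10 P15, 1311 and 1879 CPM in rd10 P18 and 1581 and 2255 CPM in rd10 P21. Its lowest library was at P18, and the P18 and P21 libraries overlapped. The log2 fold change of Pde6a was -0.52 ± 0.22 at P15, -1.09 ± 0.23 at P18 and -0.82 ± 0.22 at P21, and the adjusted p by edgeR was 0.0555 at P18, just outside the threshold. Pde6g encodes the inhibitory gamma subunit. It was at 1815 and 1628 CPM in WT P15, 1438 and 1627 CPM in rd10 P15, 1478 and 1029 CPM in rd10 P18, and 716 and 972 CPM in rd10 P21. WT P15 and rd10 P15 nearly touched, and the P21 libraries were the lowest. For Pde6g the log2 fold change was -0.17 ± 0.21, -0.46 ± 0.21 and -1.03 ± 0.21 at the 3 ages, with an adjusted p of 0.0992 by edgeR at P21.

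The 2 subunits of the rod cyclic GMP-gated channel differed in how well they were measured. Cngb1, the beta subunit, was measured at 1225 and 992 CPM in WT P15, 768 and 782 CPM in rd10 P15, 562 and 577 CPM in rd10 P18, and 473 and 587 CPM in rd10 P21. The replicates were close, all rd10 libraries lay below both WT libraries, and P18 and P21 overlapped. The log2 fold change of Cngb1 was -0.52 ± 0.16 at P15, -0.96 ± 0.16 at P18 (adjusted p = 0.0303 by edgeR) and -1.06 ± 0.16 at P21 (adjusted p = 0.0445), and it was the other member called at P21.

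Cnga1, the alpha subunit of the channel, had the widest spread of the 9. Libraries read 927 and 382 CPM in WT P15, 303 and 318 CPM in rd10 P15, 600 and 481 CPM in rd10 P18, and 178 and 204 CPM in rd10 P21. The WT libraries differed by more than any rd10 pair, and both P18 libraries lay above both rd10 P15 libraries. Against WT P15 the log2 fold change was -1.08 ± 0.37 at P15, -0.27 ± 0.36 at P18 and -1.78 ± 0.37 at P21, and no adjusted p by edgeR was under 0.05 (0.302, 0.755 and 0.118). Without WT replicate 1 these values became -0.30, 0.51 and -0.98, so that the P18 value changed sign, and without WT replicate 2 Cnga1 was called at P21 (log2 fold change -2.28, adjusted p = 0.0145 by edgeR).

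Sag, the rod arrestin (S-antigen), had the smallest fold change at P15 and at P21, and did not pass the test at any age. It stood at 3628 and 3039 CPM in WT P15, 3142 and 3412 CPM in rd10 P15, 2772 and 2627 CPM in rd10 P18, and 2177 and 2172 CPM in rd10 P21. The WT and rd10 P15 libraries overlapped, while P18 and P21 were lower without overlap. Its log2 fold change was -0.02 ± 0.14 at P15, -0.30 ± 0.14 at P18 and -0.62 ± 0.14 at P21, and its adjusted p by edgeR was 0.977, 0.306 and 0.118.

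**Figure D2:**
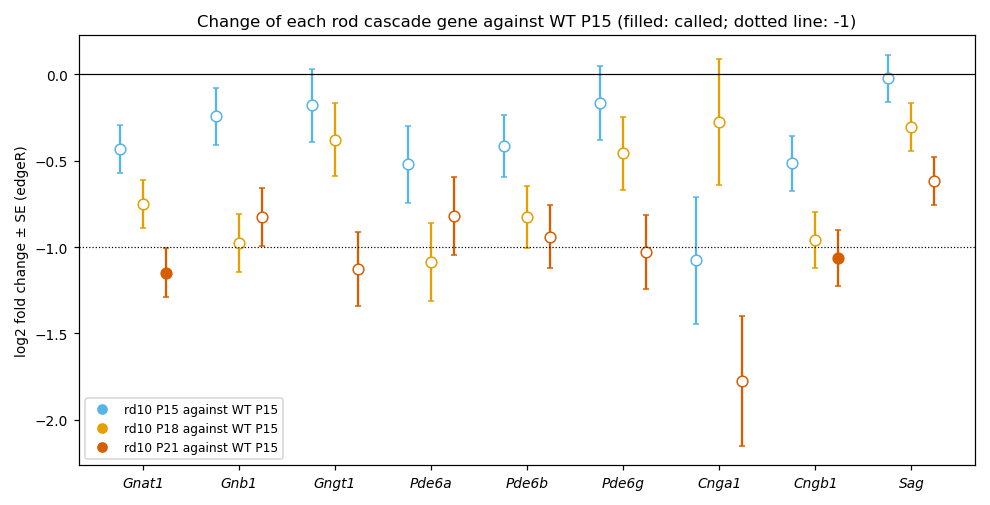
Log2 fold change of each rod cascade gene against WT P15 (vertical axis), with the SE from edgeR as bars, at rd10 P15, P18 and P21 (colours). Every point lies below 0, and the filled points are the called ones, Gnat1 at -1.15 and Cngb1 at -1.06, both at P21.

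Across the 9 members the median log2 fold change against WT P15 was -0.42 at P15, -0.75 at P18 and -1.03 at P21, where the median of all tested genes was -0.01, 0.01 and 0.00. All 9 values were negative in each of these comparisons, which share their WT libraries. At P15 edgeR called 0 of 9 members, with 5 at an unadjusted p under 0.05, and called 0.23% of all tested genes in either direction. At P18 it called 0 of 9 against 1.48% of all genes, again with 5 members at an unadjusted p under 0.05, and Gnat1, Gnb1 and Cngb1 had an adjusted p under 0.05 without reaching the fold limit. At P21 it called 2 of 9, both lower, against 0.386% of all genes, and all 9 had an unadjusted p under 0.05. The share of all genes at an unadjusted p under 0.05 was not counted, so such counts here and below have no background. An adjusted p under 0.05 with a negative change and no fold limit was reached by 0, 3 and 2 members at the 3 ages, and by 0.0978%, 0.518% and 0.161% of all genes. Both rd10 libraries lay below both WT libraries for 8 members at P15 (all but Sag), 8 at P18 (all but Cnga1) and 9 at P21, where 24.9%, 22.9% and 24.2% of all tested genes did so.

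These calls depended on the tool and on single libraries. DESeq2, the tool of the study, called 1 member at P15 (Cnga1), 1 at P18 (Pde6a) and 5 at P21 (Gnat1, Gngt1, Pde6g, Cnga1 and Cngb1), where it called 2.13%, 4.74% and 2.76% of all genes with an adjusted p. At P21 all 9 members had an adjusted p under 0.05 by DESeq2, and the share of all genes at that limit was not counted. In edgeR the 2 calls at P21 fell to 0 without WT replicate 1, without either rd10 P15 library or without rd10 P21 replicate 1, where between 0.0182% and 0.0458% of all genes were called. They rose to 4 (Gnat1, Gngt1, Pde6g and Cngb1) without rd10 P18 replicate 1 or 2, where 0.959% and 0.943% of all genes were called. Without rd10 P21 replicate 2 Gnat1 alone was called (0.583% of all genes), and without WT replicate 2 Cnga1 alone (0.114%). At P18 Pde6a was called without rd10 P18 replicate 2, where 5.7% of all genes were called, and without rd10 P21 replicate 1 or 2 (1.6% and 1.68%). With replicate number as a block no member was called at P21 (0.088% of all genes), although the numbers do not pair the retinas.

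With the term for Y-linked expression the P21 count was 1 (Gnat1) where 0.176% of all genes were called, and the P18 count was 1 (Gnb1) where 0.934% were. All 9 values stayed negative at each age, and several moved at P15. Pde6a at P15 changed from -0.52 to -0.0053 ± 0.17, Pde6b from -0.42 to -0.20 ± 0.22, Gnat1 from -0.43 to -0.30 ± 0.17 and Cngb1 from -0.52 to -0.34 ± 0.20, while Gngt1 changed from -0.18 to -0.40 ± 0.28 and Gnb1 from -0.24 to -0.38 ± 0.21. At P21 Pde6a changed from -0.82 to -0.59 ± 0.14, and Pde6b from -0.94 to -0.85 ± 0.18. At both P18 and P21 the library with Y-linked counts was replicate 1. The term therefore carries any other difference between the replicates of those groups, and applies it to P15. Whether these shifts come from Y-linked expression was not tested.

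Within rd10 retina, no member was called between ages, at an edgeR background of 0.591% of genes called between P18 and P15, 0.401% between P21 and P15 and 0.0196% between P21 and P18. DESeq2 called 0, 0 and 1 member (Cnga1, P21 against P18), at a background of 3%, 2.62% and 0.6% of genes, and unadjusted edgeR p-values were under 0.05 for 3, 7 and 4 members. From P15 to P18 the log2 changes were -0.73 ± 0.17 for Gnb1 and -0.57 ± 0.22 for Pde6a, whereas Cnga1 had 0.80 ± 0.37. From P18 to P21 the members divided by value. Gnat1 (-0.40 ± 0.14), Gngt1 (-0.75 ± 0.21), Pde6g (-0.57 ± 0.21), Cnga1 (-1.50 ± 0.37) and Sag (-0.31 ± 0.14) had both P21 libraries below both P18 libraries. Pde6b (-0.12 ± 0.18), Pde6a (0.27 ± 0.22) and Cngb1 (-0.10 ± 0.16) overlapped, and Gnb1 (0.15 ± 0.16) had both P21 libraries above. The lowest adjusted p of a member in this step was 0.412 by edgeR (Cnga1), so the division is a description. The share of all genes without overlap in this step was not counted, so the division also has no background. Without rd10 P18 replicate 2 Gngt1 was called between P18 and P21, in a fit that called 4.39% of all genes.

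Ratios within a library do not depend on library scaling, and were used to ask whether the mutated subunit moved apart from its partners. Other differences between libraries still enter a ratio. The 2 rd10 P18 libraries differed most from each other, with a mean chi-square per gene between replicate counts of 96.1. The other groups had 23.2 to 37.1, and the cause was not tested. The counts of Pde6b per transcript length were 1.05 and 1.12 times those of Pde6a in WT P15, 1.12 and 1.20 times in rd10 P15, 1.60 and 1.08 times in rd10 P18 and 1.00 and 0.99 times in rd10 P21. WT and rd10 overlapped, and the highest ratio was that of rd10 P18 replicate 1. Over the 6 rd10 libraries the log2 ratio was 0.20 ± 0.26 (SD) against 0.11 ± 0.07 in the 2 WT libraries, a difference of 0.09 (exact two-sided permutation p = 0.786). With 2 against 6 libraries this test cannot give a p under 0.0714, and at a single age, with 2 against 2, none under 0.333. By age the difference in log2 ratio was 0.10 at P15, 0.28 at P18 and -0.12 at P21. Without rd10 P18 replicate 1 the overall difference was -0.01.

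The ratio of the inhibitory Pde6g to Pde6b was higher than in WT in both libraries at P15 (2.89 and 2.81 against 2.42 and 2.38 per length) and at P18 (3.58 and 2.59), and lower at P21 (2.31 and 2.22). The same turn is seen in the levels, where Pde6g had a log2 fold change of -0.17 at P15 beside -0.42 for Pde6b, and -1.03 at P21 beside -0.94. Over all 6 rd10 libraries the log2 difference was 0.17 (exact permutation p = 0.429). For Gnat1 to Gngt1, 2 subunits of the same G protein, the log2 difference over the 6 rd10 libraries was -0.21 (exact permutation p = 0.214), and the 2 libraries at P18 lay far apart. Of the 15 ratios computed between members or with cone counterparts, Sag to Gnat1 was the one in which every rd10 library lay on the same side of both WT libraries. Sag counts per transcript length were 0.444 and 0.373 times those of Gnat1 in WT P15, 0.533 and 0.553 times in rd10 P15, 0.566 and 0.548 times in rd10 P18 and 0.661 and 0.535 times in rd10 P21. The mean log2 difference was 0.47, and its exact two-sided permutation p of 0.0714 is the smallest this design can give (0.714 after Benjamini-Hochberg adjustment over the 15 ratios).

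**Figure D3:**
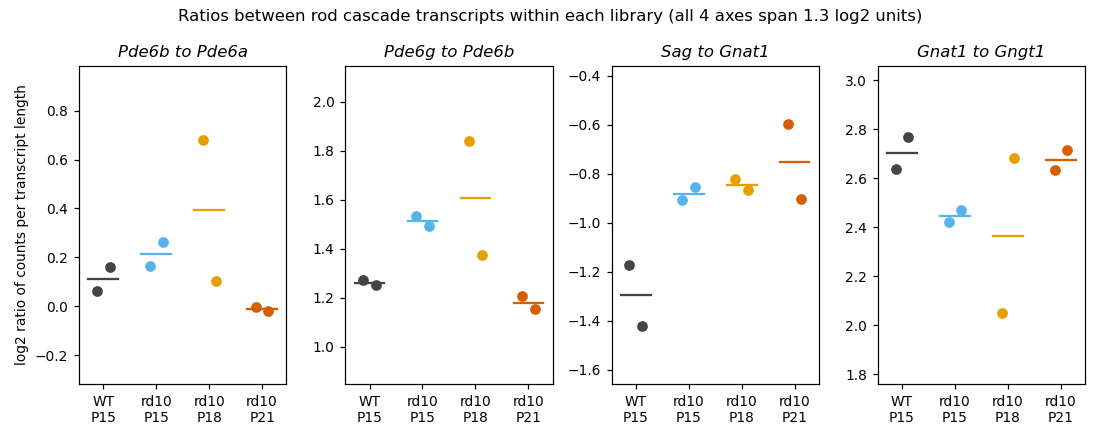
Log2 ratio of counts per transcript length between pairs of rod cascade transcripts (vertical axes, each spanning 1.3 log2 units) in each library, with a line at the mean of 2. For Pde6b to Pde6a the WT and rd10 libraries overlap (means 0.11 and 0.20), while for Sag to Gnat1 all 6 rd10 libraries lie above both WT libraries (means -0.83 and -1.30).

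Cones use a parallel set of proteins, and each rod gene was set beside its cone counterpart. At P15 all 8 cone counterparts had negative log2 fold changes, with a median of -0.61 against -0.42 for the rod members, and Arr3, the cone arrestin, was called lower (-1.71 ± 0.18, adjusted p = 0.0150 by edgeR). Arr3 was measured at 185 and 155 CPM in WT P15, 45.3 and 58.7 CPM in rd10 P15, 62.3 and 67.3 CPM in rd10 P18, and 132 and 160 CPM in rd10 P21. It was low at P15 and P18 and overlapped WT at P21, whereas its rod counterpart Sag was lowest at P21. At P18 the cone median was -0.57, with Arr3 called (-1.39 ± 0.18, adjusted p = 0.0150) and Gnb3 higher below the fold limit (0.80 ± 0.13, adjusted p = 0.0291). Gnb3, the cone beta subunit, which ON bipolar cells also use, was at 322 and 321 CPM in WT, 594 and 524 CPM at P18 and 516 and 485 CPM at P21.

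At P21 no cone counterpart was called, 3 had an unadjusted p under 0.05, and their median log2 fold change was -0.07 against -1.03 for the rod members. Gnat2, the cone transducin alpha subunit, had log2 fold changes of -0.92 ± 0.15, -0.71 ± 0.15 and -0.37 ± 0.15 at the 3 ages, where Gnat1 had -0.43, -0.75 and -1.15. For Pde6c, the cone catalytic subunit, they were -0.62 ± 0.14, -0.43 ± 0.14 and 0.16 ± 0.14. The cone inhibitory subunit Pde6h had -1.12 ± 0.24, -0.72 ± 0.24 and -0.68 ± 0.24, and the gamma subunit Gngt2 had -0.31 ± 0.21, 0.17 ± 0.21 and -0.19 ± 0.21. The cone channel genes Cnga3 and Cngb3 were near their WT level at P21, at 0.07 ± 0.19 and 0.05 ± 0.21, after -0.73 ± 0.19 and -0.43 ± 0.21 at P18. None of these passed the test. At P15 the log2 ratio of rod to cone gene was above both WT libraries in both rd10 libraries for 6 of the 9 pairs, the largest differences being 1.70 (Sag to Arr3), 0.91 (Pde6g to Pde6h) and 0.48 (Gnat1 to Gnat2). At P21 the ratio was below both WT libraries in both rd10 libraries for 8 of the 9 pairs, with differences from -0.39 (Sag to Arr3) to -1.73 (Cnga1 to Cnga3), and Pde6g to Pde6h (-0.41) overlapped. With 2 against 2 libraries the exact permutation p of each was 0.333, the smallest possible, or above. The share of other gene pairs without overlap was not counted, so these counts of pairs have no background. The pairs also share their WT libraries, and Pde6c stands beside both Pde6a and Pde6b.

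**Figure D4:**
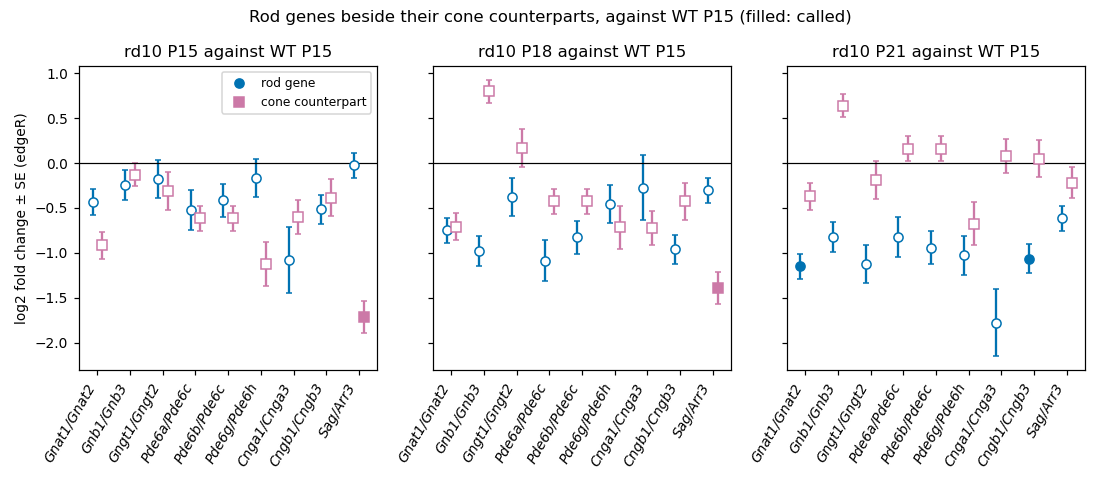
Log2 fold change against WT P15 with the SE from edgeR (vertical axis) for each rod gene (circles) and its cone counterpart (squares), in panels for rd10 P15, P18 and P21, with called genes filled. The cone medians move from -0.61 to -0.07 between P15 and P21 while the rod medians move from -0.42 to -1.03.

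The genes that end the rod response and restore calcium, and other genes of rods, gave calls in the same direction. Of 11 shutoff and calcium feedback genes, 1 was called lower at P15, 5 at P18 and 2 at P21. Among all genes 0.23%, 1.48% and 0.386% were called in either direction, which is also the background for the lists below. The median log2 fold changes of the 11 genes were -0.55, -1.13 and -0.88. The 2 rd10 P18 libraries lay far apart for Rgs9 (81.8 and 420 CPM) and Gucy2f (47.6 and 140 CPM), which were not called. Guca1a, a calcium sensor of guanylate cyclase, was called at each age, with -2.26 ± 0.20 at P15, -1.44 ± 0.19 at P18 and -1.41 ± 0.19 at P21 (adjusted p = 0.00684, 0.0172 and 0.0351 by edgeR). It stood at 651 and 585 CPM in WT P15 and at 119 and 139 CPM in rd10 P15. The others at P18 were Rgs9bp, an anchor of the transducin shutoff complex (-1.33 ± 0.20), the guanylate cyclase Gucy2e (-1.22 ± 0.22), the exchanger Slc24a1 (-1.13 ± 0.20) and, named after its values were seen, the pigment kinase Grk1 (-1.08 ± 0.20), with an adjusted p between 0.0222 and 0.0403. At P21 Guca1b (-1.37 ± 0.21, adjusted p = 0.0455) was called beside Guca1a.

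Of 14 other rod genes, 0 were called at P15 (5 at an unadjusted p under 0.05), 4 lower at P18 and 2 lower at P21, with medians of -0.32, -0.76 and -0.90. At P15, 2 of these 14 and 2 of the 11 shutoff genes had positive values, and at P18 and P21 all were negative. At P18 these were the retinoid transporter Abca4 (-1.24 ± 0.23), the transcription factor Nr2e3 (-1.18 ± 0.18), the potassium channel subunit Kcnv2 (-1.18 ± 0.19) and Reep6 (-1.08 ± 0.17). At P21 they were the disc rim protein Prph2 (-1.20 ± 0.19) and Reep6 (-1.14 ± 0.17). The medians of the 9 cascade genes lay between those of the other rod genes and the shutoff genes at P15, were the least negative of the 3 lists at P18 (-0.75 beside -0.76 and -1.13) and the most negative at P21, a description since these lists share libraries and cells.

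Over the 8 libraries the members followed each other to different degrees. The log2 CPM of Gnat1 had the highest Pearson correlation with the mean of the other members (r = 0.97), followed by Cngb1 (0.96) and Pde6b (0.95), and Pde6a (0.74) and Cnga1 (0.62) had the lowest. Gngt1 and Pde6g went together (r = 0.98), as did Pde6b and Cngb1 (r = 0.98), while Pde6a and Cnga1 had r = 0.30. Among 10940 other genes with a mean of at least 10 CPM, those most like the mean of the 9 members were the lactate transporter Slc16a1 (r = 0.99), Bend6 (0.98), Prph2 (0.98), the guanine nucleotide enzyme Impdh1 (0.98) and Fabp12 (0.98). Those most like Pde6b were Fabp12 (0.99), Hdhd2 (0.98), Susd3 (0.98), Exoc2 (0.98) and Gm14698 (0.98). These correlations describe 8 libraries in 4 groups, whose group differences enter every value.

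Markers of other cells moved in the same libraries, and their part in the values above was not tested. Of 9 microglia markers 3 were called higher at P18 and 2 at P21 (Itgam 6.20 ± 0.68, C1qa 2.43 ± 0.42 and Tmem119 2.27 ± 0.45 at P18, and Itgam 4.10 ± 0.65 and C1qa 2.77 ± 0.43 at P21, on the log2 scale), and their summed level was 40.5 to 48.8 CPM in WT, 70.9 to 73.3 CPM at P15, 195 to 204 CPM at P18 and 135 to 277 CPM at P21. Whole retina cannot show which cells the 10 genes listed for reactive Muller glia came from. Of these 10, 1 was called lower at P15 (Edn2, -4.21 ± 0.51), 9 higher at P18 and 6 higher at P21. The largest of those called at P18 were Timp1 at 6.19 ± 1.04, Lcn2 at 5.99 ± 0.85, Serpina3n at 5.74 ± 0.51 and Socs3 at 3.80 ± 0.29. The largest of those called at P21 were Serpina3n (4.48 ± 0.48), Edn2 (2.95 ± 0.39), the glial filament gene Gfap (1.81 ± 0.21) and Cebpd (1.80 ± 0.25). The median of all 10 at P21 was 2.00, so some genes that were not called changed more than Gfap and Cebpd. Summed, the 10 genes were at 123 to 185 CPM at P15 in WT and rd10 and at 1310 to 1511 CPM at P18.

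Of 10 general Muller glia markers Vim was called at P18 (1.63 ± 0.24), of 5 endothelial markers Cldn5 was called at P15 (2.00 ± 0.21) and P18 (1.69 ± 0.21), and of 8 pigment epithelium markers Lrat was called lower at P21 (0.670 against 5.34 CPM). No bipolar, amacrine and ganglion, lens or red blood cell marker was called against WT P15. Median log2 fold changes at P21 were 0.30 for 10 bipolar, 0.04 for 12 amacrine and ganglion, 0.53 for Muller glia, 0.89 for endothelial, -0.94 for pigment epithelium and -0.38 for red blood cell markers, beside -1.03 for the rod cascade. All 10 Muller glia and all 5 endothelial markers had positive values at P21, with 8 and 5 of them at an unadjusted p under 0.05. Summed lens markers were at or below 7.40 CPM and summed red blood cell markers between 56.8 and 188 CPM in every library.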

How the data were processed

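The deposited table holds raw read counts per Ensembl gene, whole numbers without normalization, which the authors made from poly(A) RNA libraries of whole retina read on an Illumina NovaSeq. HISAT2 is named in the submitters' processing notes. The sources used here do not name the counting tool, genome build or annotation. Symbols, exons and transcript lengths came from GENCODE M21 (GRCm38), which names 52081 of 57010 identifiers, and 29411 had at least 1 count. No exon of a member overlaps another gene. A read count depends on how multi-mapping reads were treated, which is not stated.

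Genes were kept by filterByExpr (minimum count 10, minimum total 15), scaled by TMM and tested in R 4.3.3 with edgeR 4.0.16 (on limma 3.58.1), a robust quasi-likelihood fit of 4 groups to all 8 libraries with 4 residual degrees of freedom. The SE is the log2 fold change divided by the square root of F. P-values were adjusted over 20457 genes. Fold and p thresholds followed the study, which used DESeq2, and version 1.42.0 was the alternative here. Other alternatives were RLE factors, library size only, no filter, only the 4 libraries compared, a replicate block, a term for Y-linked expression, no fold limit and each library left out. The fits were tested on simulated data.

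Ratios used counts plus 0.5 per transcript length and exact permutation tests. The 9 members are all named. Of other lists, genes called against WT P15 are named (at most the 4 largest by fold per list and age), with each cone counterpart, and the 5 most similar genes. A planned marker gene is not reported here. Members and lists were chosen with earlier results of these data known. P-values measure the spread between these 8 retinas. Python 3.11.15 with matplotlib 3.10.9 drew the figures.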

Additional observations from a re-analysis of the deposited data

How the results depend on the processing

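The numbers of members called against WT P15 (0, 0 and 2 at P15, P18 and P21) were 1, 1 and 5 with DESeq2. At P18 the count was also 1 without the filter on low counts (1.3% of all genes) and with the term for Y-linked expression (0.934%). It was 3 without the fold limit, all with a negative change, as had 0.518% of all genes. At P21 the count was 1 with library size only (0.445% of all genes) and with the Y-linked term (0.176%). The P21 count was 3 without the filter (0.544%) and with only the 4 libraries compared (0.68%). With the replicate block it was 0 (0.088%), and this block left other calls of members as they were. Leaving out each library gave 0 to 1 members at P18, 0 to 4 at P21 and 0 to 1 between P21 and P18, where DESeq2 called 1. The log2 fold change of Sag at P15 was 0.0215 with library size only and lay between -0.15 and 0.11 with each library left out, turning positive without replicate 1 of WT P15 or of rd10 P15. That of Cnga1 at P18 lay between -0.78 and 0.51, the last without WT P15 replicate 1. The difference in the Pde6b to Pde6a log2 ratio lay between -0.0106, without rd10 P18 replicate 1, and 0.135. The cause of these changes was not tested.

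Over the 3 comparisons with WT P15, 131, 128 and 110 values of single members kept direction and side of the threshold, and 1, 6 and 10 passed it newly, while 15 at P21 no longer passed. Replicate differences correlated between -0.0245 and 0.0594 across groups, so that replicate numbers share a number only. All genes called were 431, 957 and 573 by DESeq2 against 47, 303 and 79 by edgeR. With 2 retinas a group, changes near the fold limit could not be settled.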
